A study of Mus musculus with 36 samples.

Results

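Body weight at 3 weeks of age, about the time of weaning, was recorded for each of the 36 male mice whose livers were later hybridized to expression arrays, and the expression of each gene was set against it. All 36 arrays of the series entered, 1 per mouse, and no mouse was chosen for its weight or its expression. The dams ate a high fat diet (HF) or a low fat diet (LF) until weaning, the male pups then received HF or LF, and a group name gives the dam diet before the pup diet. There were 10 HF_HF mice in 4 cages, 9 HF_LF mice in 5 cages, 8 LF_HF mice in 4 cages and 9 LF_LF mice in 4 cages. According to the methods of the study, all mice were of the C57BL/6J background and were killed at 9 weeks of age after a 4-hour fast. No treatment apart from the diets is described for them. The HF diet was also low in carbohydrate, so fat and carbohydrate cannot be told apart. Coconut oil was the main fat source of both diets. The 12 cages each had 1 dam diet, and 5 of them held pups of both post-weaning diets. The labels do not say whether a cage is the birth cage or the cage after weaning, so that mice called cage mates below may have shared either. The question was whether growth before weaning left a trace in the liver weeks later, among mice of the same group.

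In the suckling period the liver makes the step from a blood-forming, growing organ to the metabolic organ of the adult, and growth hormone gradually takes over the control of body growth. Growth hormone binds its receptor Ghr on hepatocytes and acts through Jak2 and Stat5 to induce Igf1, the main circulating growth factor, and Igfals, which holds IGF1 in the blood. Cish and Socs2, both induced by the same signal, dampen it. The binding proteins Igfbp1 and Igfbp2 limit access of the IGFs to their receptor, and Igfbp1 is switched on by fasting and off by insulin. The pulsed release of growth hormone in males sets the expression of many liver genes that differ between the sexes.

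Weight at 3 weeks ran from 9.38 g through a median of 11.59 g to 13.36 g in HF_HF mice. It ran from 9.71 g through 10.61 g to 11.96 g in HF_LF mice, from 8.04 g through 9.075 g to 11.1 g in LF_HF mice and from 8.33 g through 9.7 g to 10.79 g in LF_LF mice. The groups overlapped, and 46.5% of all variation in weight lay between the dam diets. Since the dam diet and the weight moved together, every slope was estimated within groups, where a mouse deviated from its group mean by between -2.23 g and 1.85 g. The SD of these deviations was 1.03 g. Of the variation within groups, 63.0% lay between cages and 37.0% within cages, with a shift for the post-weaning diet fitted for each dam diet. Some share between cages arises from their number alone, and the resemblance of cage mates was not tested. The 4 mice of cage 20, all from HF dams, weighed between 11.96 g and 13.36 g, whereas the 3 mice of cage 8, all LF_LF, weighed between 8.33 g and 8.6 g. The 17 mice above the median weight of their group are called heavier mice below, and they exceeded the other 19 by 1.63 g on average, as deviations from the group means.

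**Figure D1:**
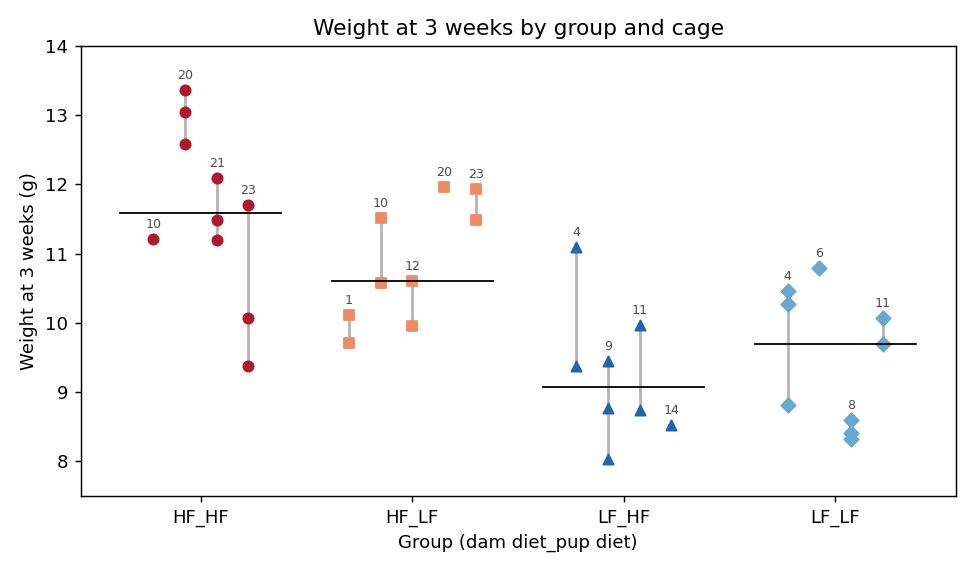
Weight at 3 weeks in g (vertical axis) of each mouse in the 4 groups, named by dam diet and pup diet. Each column of points is 1 cage, with its number above and its range as a grey line, and black lines are group medians, which were 11.59 g in HF_HF, 10.61 g in HF_LF, 9.075 g in LF_HF and 9.7 g in LF_LF.

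The lead in weight at 3 weeks was still visible in the body of the same mice later on. Within groups, each g at 3 weeks went with 1.02 ± 0.234 g (SE) of the second recorded weight, an entry that the labels also call a weaning weight but whose group means of 23.6 g to 30.5 g do not resemble that age. The correlation of the deviations was 0.618 (Pearson's r, n = 36, permutation p = 0.00015, adjusted p = 0.00225 over 15 correlations), with a Spearman's rho of 0.64 (permutation p = 0.0001). It was positive in every group, between 0.505 in LF_LF and 0.86 in LF_HF, and it was 0.473 between mice of the same cage and group (permutation p = 0.023). Leaving out the 2 mice farthest from the median gave 0.595. Body length increased by 0.779 ± 0.286 mm (SE) per g, with an r of 0.451 over the 34 mice with a recorded length (permutation p = 0.00587, adjusted p = 0.0293) and a rho of 0.495 (permutation p = 0.00363). Within cage and group the r for length was 0.554 (permutation p = 0.00773), and without the 2 farthest mice it was 0.436. The permutations shuffled mice within groups and so treated cage mates as independent.

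Blood glucose followed no common slope over the 4 groups. Its r with weight at 3 weeks was 0.0665 (permutation p = 0.728, adjusted p = 0.728) and its rho 0.0909 (permutation p = 0.617). Without the 2 farthest mice r was 0.0956, and within cage and group it was -0.0752. The slopes had opposite signs in the pups of HF dams and the pups of LF dams. Glucose changed by -12 mg/dl per g in the 19 pups of HF dams (r = -0.365) and by 22.9 mg/dl per g in the 17 pups of LF dams (r = 0.641), a difference of -34.9 mg/dl per g (two-sided permutation of weights within groups, p = 0.00385, adjusted p = 0.0115 over second weight, glucose and length). That difference was tested after the values by group had been seen. Within cages r was -0.656 in pups of HF dams and 0.622 in pups of LF dams. The same difference for the second weight was -0.249 g per g (permutation p = 0.679), and for length it was -0.0024 mm per g (permutation p = 0.997).

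**Figure D2:**
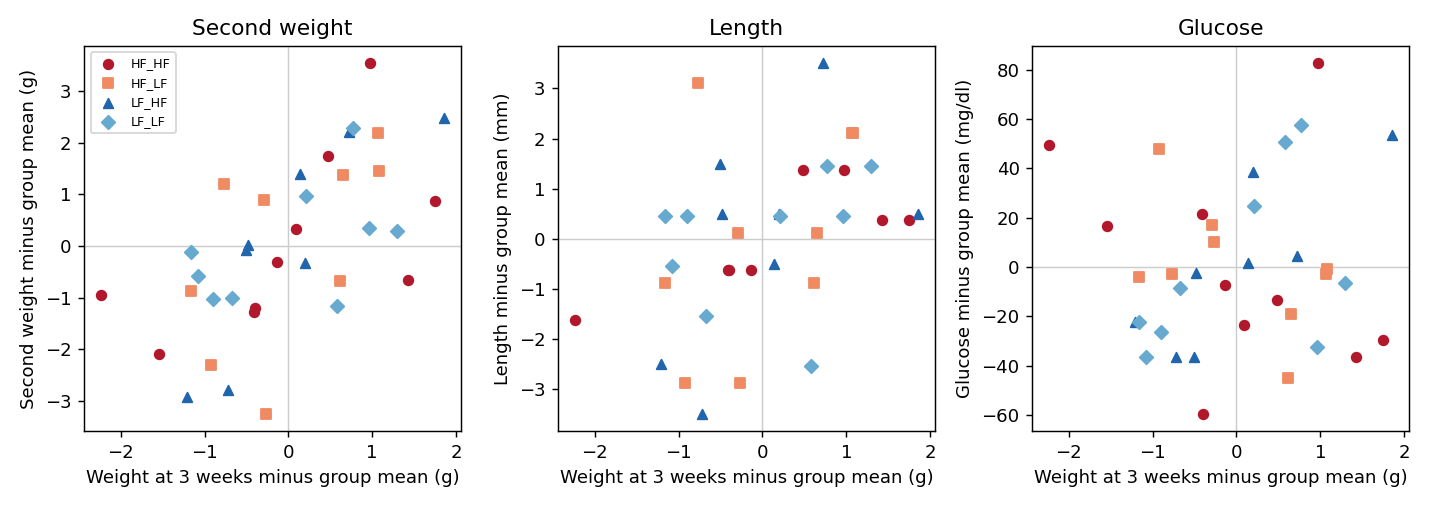
Second weight in g, length in mm and blood glucose in mg/dl (vertical axes), each as a deviation from the group mean, against the deviation of the weight at 3 weeks in g (horizontal axes), with 1 point per mouse and symbols by group. Points climb from left to right for second weight (r = 0.618) and length (r = 0.451), and for glucose the pups of LF dams climb (r = 0.641) while the pups of HF dams do not (r = -0.365).

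No liver transcript passed the test of association with the weight at 3 weeks after correction for multiple testing. Of the 12289 probes bright enough to be tested, 0 passed a false discovery rate of 5% (0%) in limma with the group as a factor and cage as a random block, and the lowest adjusted p was 0.339. At an unadjusted p under 0.05 there were 884 probes (7.19%), of which 484 had a slope above 0 and 400 a slope below 0. A slope is given here in log2 of the deposited intensity per g of weight at 3 weeks, with its SE. The 95% interval of a slope reached a median of 0.048 to each side of it, and it lay within -0.1 and 0.1 log2 per g for 82.0% of the probes and within -0.2 and 0.2 for 98.1%. With cage as a fixed block, so that only mice of the same cage were set against each other, 0 probes passed and 710 (5.78%) had an unadjusted p under 0.05. A single exclusion changed the count, since without cage 21 (3 HF_HF mice) 1 probe passed, that of Noct.

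The 10 genes with the lowest p and a slope above 0 had slopes of 0.06 to 0.17 and unadjusted p of 6.05e-05 to 4.59e-04, and none passed (adjusted p of 0.339 to 0.352 in limma, for these and for the 10 with a slope below 0). Id3, an inhibitor of basic helix-loop-helix transcription factors, came first at 0.14 ± 0.03. Its intensity ran from 107.4 through a median of 148.7 to 170.6 in HF_HF, from 109.2 through 140.6 to 199.5 in HF_LF, from 112.1 through 121.2 to 135.8 in LF_HF and from 112.4 through 130 to 176.5 in LF_LF. The slopes by group were 0.16 in HF_HF, 0.33 in HF_LF, 0.01 in LF_HF and 0.05 in LF_LF. In the pups of HF dams the heavier mice had medians of 160.9 against 130.7 (HF_HF) and 177.4 against 123.7 (HF_LF), whereas the heavier pups of LF dams had medians of 119.8 against 123.1 (LF_HF) and 128.7 against 141.1 (LF_LF). In HF_LF the 4 heavier mice all lay above the 5 others. The difference between the slopes of pups of HF and of LF dams was 0.18 log2 per g (HF dams minus LF dams, unadjusted p = 0.00293, adjusted p = 1.00 in limma), which did not pass. Without cage 23, which held 5 pups of HF dams, the slope of Id3 over all mice was 0.09.

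Mgst3, a microsomal glutathione transferase, had a slope of 0.17 ± 0.04 and the same sign in all 4 groups. Intensities of Mgst3 ran from 177.3 through 239.7 to 297.2 in HF_HF, from 396.2 through 540.6 to 833.6 in HF_LF, from 212.5 through 246.8 to 340.4 in LF_HF and from 316.3 through 421.9 to 647.1 in LF_LF. Mice on HF after weaning were lower than most mice on LF after weaning. The heavier mice all lay above the others in HF_HF (240.8 or more against 238.6 or less) and in LF_LF (433.7 or more against 421.9 or less), whereas the ranges overlapped in HF_LF and LF_HF. Between mice of the same cage the slope of Mgst3 was 0.26 ± 0.06 (unadjusted p = 9.23e-05), and a second, dimmer probe of the gene gave 0.08 ± 0.04. Rnf186, a ubiquitin ligase of the endoplasmic reticulum, had a slope of 0.17 ± 0.04, with heavier mice at medians of 143.4 against 111.9 in HF_HF, 143.3 against 98.1 in HF_LF, 161.9 against 142.8 in LF_HF and 164.8 against 125.8 in LF_LF. Its slope within cages was smaller, at 0.08 ± 0.06. Ntrk2, the receptor of brain-derived neurotrophic factor, had a slope of 0.13 ± 0.03 and Nqo1, a quinone reductase, one of 0.07 ± 0.02. Both probes were dim, at intensities of 65 to 144.2 for Ntrk2 and of 63.6 to 97.3 for Nqo1 over all mice. The others were Theg, Amotl2, Col5a3, Zfp941 and Spg20, with slopes between 0.06 and 0.10.

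The 10 genes with the lowest p and a slope below 0 had slopes of -0.07 to -0.39. Noct, the nocturnin gene, whose rhythmic transcript encodes a phosphatase of NADP(H), had a slope of -0.28 ± 0.06. Its intensity ran from 235.8 through 441 to 853.4 in HF_HF, from 454.8 through 599.1 to 875.9 in HF_LF, from 253.3 through 356.5 to 576.9 in LF_HF and from 351.3 through 663 to 1087.5 in LF_LF. The medians were lower in the heavier mice of every group, at 352.2 against 571.9 (HF_HF), 501.1 against 786.3 (HF_LF), 307.8 against 431.6 (LF_HF) and 531.6 against 716.6 (LF_LF), and the ranges of heavier and lighter mice overlapped. A dimmer Noct probe had a slope of -0.17 ± 0.05 (adjusted p = 0.421 in limma). Within cages the slopes were -0.15 ± 0.08 for the first probe and -0.01 for the dimmer one, and without cage 21 the first probe stood at -0.29 and passed (adjusted p = 0.0351). With the second weight in the fit the slope of Noct was -0.18.

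Bhmt, which remethylates homocysteine to methionine with betaine, had the steepest slope of these genes, at -0.39 ± 0.10 (adjusted p = 0.352 in limma). Bhmt ran from 439.9 through 1077.5 to 3273.3 in HF_HF, from 214 through 494.4 to 1458.2 in HF_LF, from 831.1 through 1444.6 to 2805.8 in LF_HF and from 320.9 through 614 to 1110.5 in LF_LF. The heavier mice had lower medians in HF_HF (661.5 against 1363), in HF_LF (303.5 against 538.2) and, by less, in LF_LF (548.6 against 614) and LF_HF (1426 against 1445), and the ranges overlapped. Its slope within cages was -0.26 ± 0.13, and without cage 20 its slope was -0.25. Kcnk5, a potassium channel, had a slope of -0.17 ± 0.04, and a brighter probe of it one of -0.13 ± 0.06, while the dimmest of its 3 probes stood at -0.01. The remaining genes were Fmn2, Ice2, Alyref2, Ybx3, Ncapd2, Igfbp1 and Fbh1. The other probes of Ybx3 stood at 0.02 and 0.00, against -0.07 for the leading one, and those of Fbh1 at 0.02 for a brighter probe and -0.02 for a dimmer one, against -0.07. All 20 leading genes had the same sign within cages and in each refit without 1 mouse or 1 cage. Within cages 10 of the 20 had an unadjusted p under 0.05. The sign was the same in all 4 groups for 19. These values all come from the same mice that put the genes at the top. A mean log2 intensity under 6.5, close to the background of the array, was found for 10 of the 20.

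**Figure D3:**
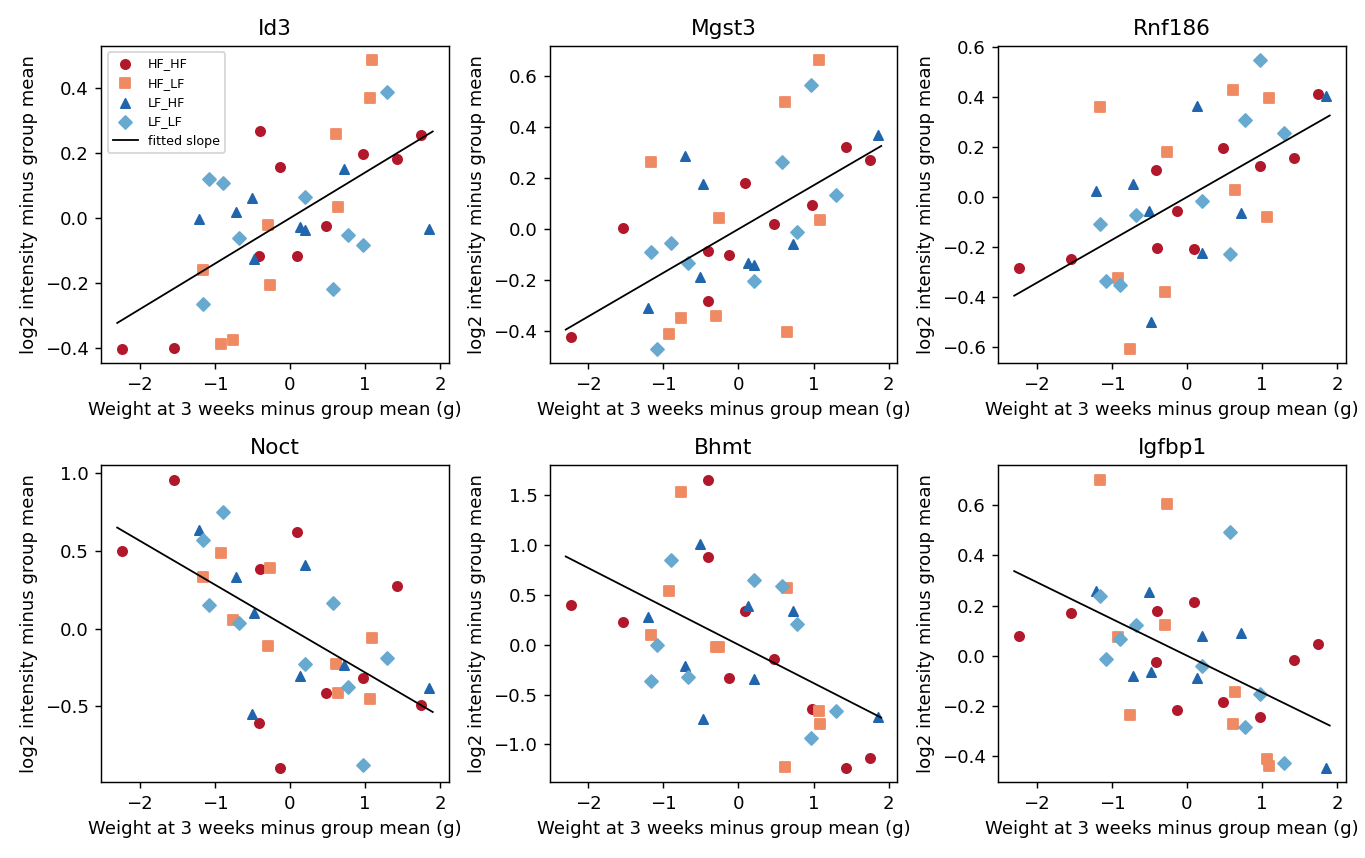
Log2 intensity minus the group mean (vertical axes) against weight at 3 weeks minus the group mean in g (horizontal axes) for 3 of the 10 leading genes with a slope above 0 (Id3, Mgst3 and Rnf186) and 3 of the 10 with a slope below 0 (Noct, Bhmt and Igfbp1), with 1 point per mouse, symbols by group and the fitted slope as a line. The mice scatter widely about each line, and no slope passed the correction over 12289 probes.

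The genes of the growth hormone and IGF axis carried no common shift. Of 20 genes tested, 11 had slopes above 0 and 9 below 0, with a median of 0.00 where the median over all 8538 genes was also 0.00. Unadjusted p under 0.05 were found for 3 genes with a slope above 0 (Cish, Socs3 and Jak2) and for 1 with a slope below 0 (Igfbp1). Over all genes the share was 4.10% for slopes above 0 and 3.20% for slopes below 0. Within cages Jak2 and Socs3 had slopes of 0.00 ± 0.03 and 0.01 ± 0.13, against 0.06 ± 0.02 and 0.19 ± 0.08 over all mice, and another Jak2 probe stood at -0.02. Igf1 ran from 5306 through 5683.9 to 6074.7 in HF_HF, from 3859.2 through 4661.9 to 5656.6 in HF_LF, from 4661.9 through 5071.1 to 6564.4 in LF_HF and from 4622.5 through 4871.4 to 5855.6 in LF_LF. Its slope was 0.01 ± 0.02 with a 95% interval of -0.04 to 0.06. Liver Igf1 RNA at 9 weeks was thus close between mice that had been heavier and lighter at 3 weeks, and Igf1 at weaning was not measured. Igfals lay at 0.01 ± 0.04, Igf2 at 0.01 ± 0.02 near the background and the growth hormone receptor Ghr at -0.05 ± 0.03, with a second Ghr probe at the same value. Igfbp2 lay at -0.10 ± 0.07 and at 0.00 with its other probe. Fgf21, the fasting hormone of the liver, lay at 0.11 ± 0.11, or 0.04 without LF_HF replicate 8, a mouse with a far higher level than the rest of its group, and Alb at -0.02 ± 0.05, with a dim albumin probe. Afp and Lepr were below the intensity filter, and H19 was not analysed here.

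Igfbp1 was the member with the lowest p. It was dim, from 67.6 through 80.9 to 92.9 in HF_HF, from 71.8 through 88.2 to 158.6 in HF_LF, from 58.4 through 80.1 to 95.2 in LF_HF and from 65.6 through 87.4 to 124 in LF_LF. Its slope was -0.15 ± 0.04 (unadjusted p = 7.53e-04, adjusted p = 0.352 in limma) and was below 0 in each group, from -0.05 in HF_HF to -0.34 in HF_LF. Within cages the slope was -0.08 ± 0.06 (unadjusted p = 0.168 in limma). With the second weight in the fit the slope on the weight at 3 weeks was -0.07, and with the second weight in place of it the slope on that weight was -0.10 log2 per g, with early and later weight themselves correlated at 0.618. Cish ran from 195.6 through 273.1 to 656.4 in HF_HF, from 409.5 through 843.5 to 1296.1 in HF_LF, from 323.9 through 711.7 to 1259.3 in LF_HF and from 231.1 through 548.9 to 1783.5 in LF_LF. The slope of Cish was 0.26 ± 0.12 over all mice, from 0.15 without cage 4 to 0.47 without cage 20, and -0.12 in HF_HF against 0.46 to 0.62 in the other groups. Within cages the slope of Cish was 0.19 ± 0.14. Socs2, the other feedback inhibitor, had a slope of 0.00 ± 0.10, at -0.21 and -0.22 in HF_HF and LF_HF against 0.54 and 0.16 in HF_LF and LF_LF. The difference between post-weaning diets for Socs2 was -0.54 ± 0.18 (unadjusted p = 0.00555, adjusted p = 0.961 in limma).

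**Figure D4:**
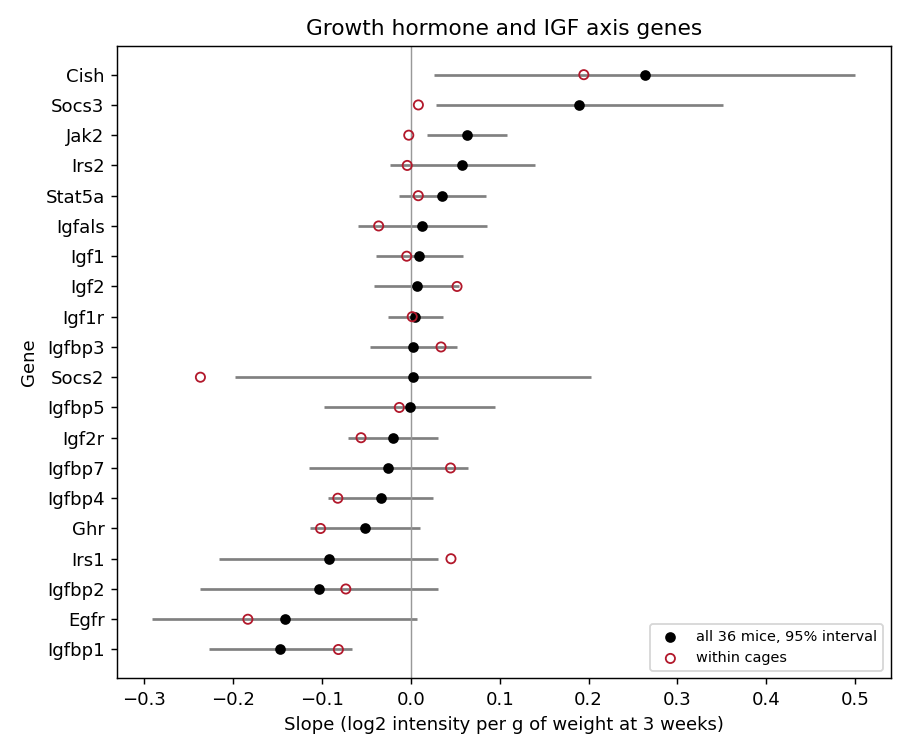
Slope in log2 intensity per g of weight at 3 weeks (horizontal axis) of the 20 tested genes of the growth hormone and IGF axis, with 95% intervals as bars, and the slope between mice of the same cage as open circles. Igf1 stands at 0.01 and Igfbp1 at -0.15, and most intervals span 0.

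The lowest median of the 25 pathway lists was that of the genes favoured in male liver or by pulsed growth hormone. Of 18 such genes, 15 had slopes below 0, with a median of -0.06, and 5 had an unadjusted p under 0.05, all below 0 (Cyp7b1, Mup20, Nudt7, Selenbp2 and Moxd1). Over all genes 54.95% of slopes were above 0, and 3.20% had such a p with a slope below 0. None of the 18 passed over all genes. Cyp7b1, an oxysterol hydroxylase, had a slope of -0.18 ± 0.07, with heavier mice at medians of 9222 against 11918 in HF_HF, 3211 against 4828 in HF_LF, 9593 against 10116 in LF_HF and 6306 against 7653 in LF_LF. Mup20, a major urinary protein that serves as a male pheromone, had a slope of -0.17 ± 0.07, and the closely similar copies of that family may share signal. Without cage 23 the slopes were -0.10 for Cyp7b1, -0.11 for Mup20 and -0.02 for Nudt7, which stood at -0.06 over all mice. A dimmer Nudt7 probe stood at 0.00 over all mice. Bcl6, a repressor of female-biased genes, went the other way at 0.14 ± 0.10. Within cages the median of the list was -0.14, with 1 gene above 0. Of 16 genes on the array with higher expression in females, 5 passed the intensity filter and were tested. Slopes above 0 were found for 4 of these, and 3 had an unadjusted p under 0.05 (Acot3, Fmo2 and Abcd2). The share of all genes with such a p and a slope above 0 was 4.10%. Fmo2 and Abcd2 lay close to the background, at mean log2 intensities of 6.18 and 6.23. Their slopes within cages were each 0.02 ± 0.03, against 0.41 ± 0.13 for Acot3. Acot3, a peroxisomal acyl-CoA thioesterase, had a slope of 0.32 ± 0.11. The mice were all males, and testosterone or growth hormone was not measured.

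Xenobiotic and glutathione metabolism, by which the liver clears drugs and peroxides, had the highest median, at 0.06, with 22 of 30 slopes above 0, and 4 genes had an unadjusted p under 0.05 above 0 and 1 below 0, beside 4.10% and 3.20% of all genes. Those above were Nqo1, Gstm2 (0.12 ± 0.05, with 2 further probes at 0.10), Cyp3a25 (0.09 ± 0.04) and the pregnane X receptor Nr1i2 (0.07 ± 0.03), and the one below was Txnrd1 (-0.04 ± 0.02). The Nqo1 probe was dim, as given above. Within cages 24 of the 30 lay above 0, with a median of 0.09. The glutathione transferases and several cytochromes of this list are near-identical copies whose probes may not separate them. In cholesterol synthesis 16 of 18 slopes were below 0 and the median was -0.05, but none had an unadjusted p under 0.05, and within cages 9 lay above 0 and the median was 0.01. The acute phase genes likewise had a median of 0.03 overall and of -0.05 within cages, so neither list kept its direction within cages.

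Among the other lists, 3 of 18 endoplasmic reticulum stress genes had an unadjusted p under 0.05 with a slope below 0, the chaperone Hsp90b1 at -0.12 ± 0.04, Creld2 at -0.19 ± 0.07 and Pdia6 at -0.09 ± 0.04. So did 4 of 29 genes of the respiratory chain and ATP synthase (Cox6c, Atp5a1, Cox7a2 and Atp5c1), whose list median was 0.00. The share over all genes was 3.20%. G6pc, the last step of glucose release, had a slope of -0.23 ± 0.07 (adjusted p = 0.481 in limma) and Angptl8, which is induced by feeding, one of 0.22 ± 0.08. Within cages G6pc stood at -0.24 ± 0.12 and Angptl8 at 0.01 ± 0.10, and without cage 23 G6pc stood at -0.15. Among the urea cycle and amino acid genes, Otc lay at -0.11 ± 0.04 and Nags at 0.08 ± 0.03. None of the 9 imprinted growth genes, the 6 fetal and neonatal liver genes, the 23 genes of fatty acid and triglyceride synthesis or the 15 cytosolic ribosomal protein genes had an unadjusted p under 0.05. The genes of the cell cycle and DNA replication had a median of 0.01 over 16 members.

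**Figure D5:**
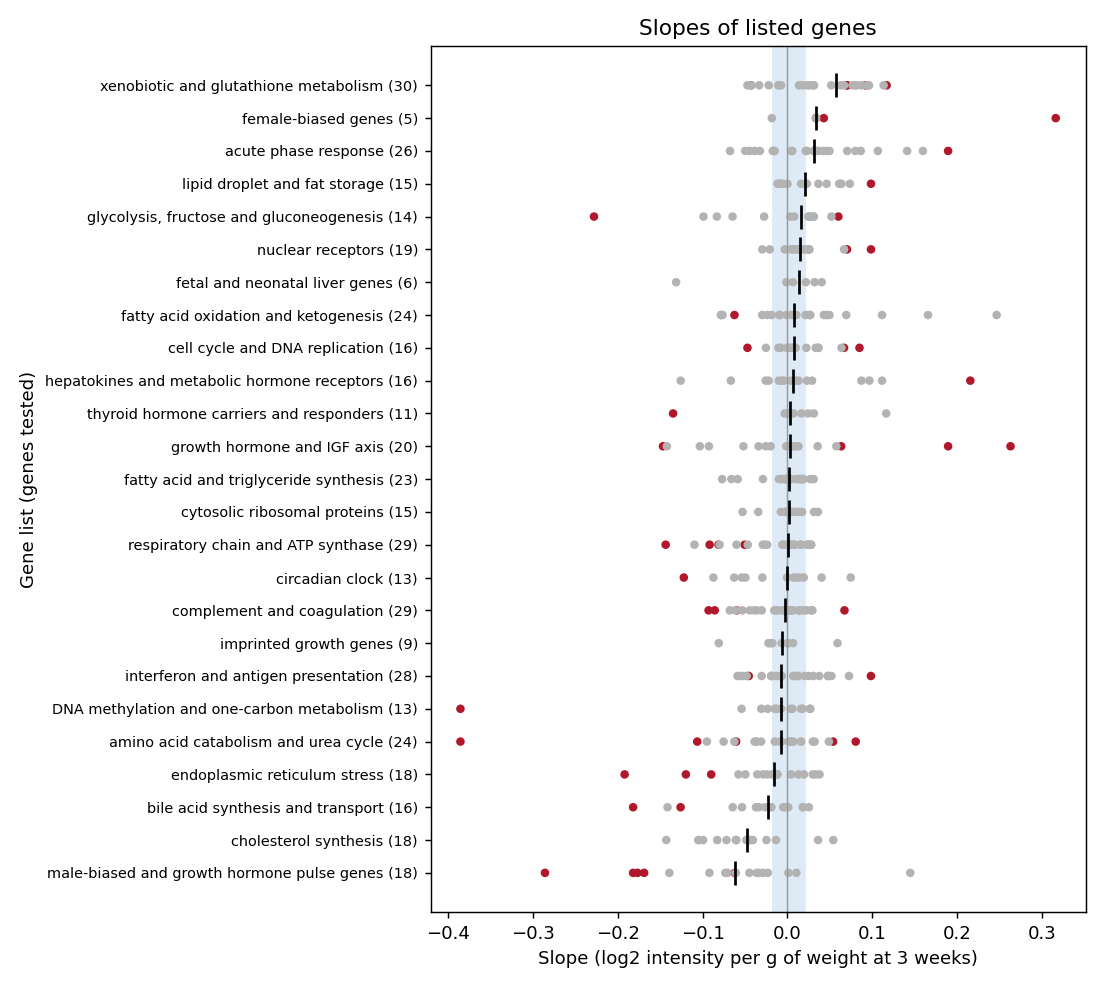
Slopes in log2 intensity per g of weight at 3 weeks (horizontal axis) of the genes in 25 lists, each gene by its brightest probe, with the number of genes tested in brackets. Red points have an unadjusted p under 0.05, black ticks are list medians and the blue band is the middle range of all genes, from -0.02 to 0.02. The median of male-biased genes is the lowest, at -0.06, and that of xenobiotic metabolism the highest, at 0.06.

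Markers of the tissue were in place, with 13 of 14 hepatocyte markers on the array tested. Their summed intensity lay between 203686 and 225038 in HF_HF, 196361 and 234164 in HF_LF, 218345 and 222243 in LF_HF and 206823 and 229133 in LF_LF, and their median slope was 0.00. Macrophage markers had slopes above 0 for 11 of 13 genes, with a median of 0.02 (0.13 within cages) and 0 at an unadjusted p under 0.05. Over all genes 54.95% of slopes were above 0. The macrophage median was 0.04 in HF_HF and 0.05 in HF_LF, against -0.05 in LF_HF and -0.0006 in LF_LF. Slopes above 0 were also found for 6 of 6 neutrophil and monocyte markers and 6 of 7 lymphocyte markers. Within cages 10 of 13 endothelial markers lay above 0. Pericentral hepatocyte markers went the other way, with 11 of 12 below 0. Of the 9 pancreatic acinar markers on the array, 3 passed the intensity filter and all 3 had slopes below 0, with Amy2a5 at -0.16 ± 0.06 (unadjusted p = 0.00763), Cela2a at -0.26 ± 0.14 and Cela1 at -0.14 ± 0.07. Most of the size of these slopes rested on cage 23, since without it Amy2a5 stood at -0.05, Cela2a at 0.02 and Cela1 at -0.01. Within cages the median of the 3 markers was -0.14, with 0 above 0. Their summed intensity ran from 509.1 to 3605.6 in HF_HF, from 445.5 to 876.4 in HF_LF, from 691.9 to 2232.1 in LF_HF and from 610 to 1012.7 in LF_LF, and their part in the slopes of other genes was not tested. In whole liver, fewer cells of a type and less RNA per cell cannot be told apart.

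The slopes were then compared between diets. Between mice on HF and mice on LF after weaning, 0 probes differed in slope at a false discovery rate of 5% (lowest adjusted p = 0.961 in limma), and 630 (5.13%) had an unadjusted p under 0.05. The gene with the highest difference in slope among those of lowest p was Ddit4, a stress-induced inhibitor of mTORC1, at 0.47 log2 per g (HF minus LF, unadjusted p = 7.69e-04), with slopes of 0.11, -0.29, 0.12 and -0.40 in HF_HF, HF_LF, LF_HF and LF_LF. Brpf1, Trpv2, Spidr and Msl3 had differences of 0.13 to 0.18, and Copg1, Fcmr, Ids, Ppp4r4 and Erc2 had differences of -0.11 to -0.15. Between pups of HF and of LF dams, 0 probes differed (lowest adjusted p = 1.00) and 412 (3.35%) had an unadjusted p under 0.05. Here the differences with the lowest p were those of Tardbp (0.18), Axin2 (0.22), Ddx5 (0.25), Pomgnt1 (0.12) and Twf1 (0.13) above 0 and Necab1, Cstf3, Kansl1l, Creld1 and Mrpl35 below 0.

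Pups of HF dams were the heavier ones at 3 weeks, so dam diet and weight shared part of their variation. When the dam diet was left out and only the post-weaning diet was kept in the fit, 10 probes passed (0.0814%), 3 with slopes above 0 (Gpat3, Caln1 and Id3) and 7 below 0 (2 probes of Tle1 and 1 each of Mcm10, Smad2, Fmn2, Sgms2 and E2f6). Gpat3, an acyltransferase of glycerolipid synthesis, led these with 0.12 log2 per g (adjusted p = 0.00927 in limma), and within groups its slope was 0.11 ± 0.03 (adjusted p = 0.373) and within cages 0.18 ± 0.04. For Caln1 the slope was 0.12 without the dam diet in the fit, against 0.06 within groups. In reverse, 35 probes (0.285%) differed between pups of HF and LF dams averaged over the post-weaning diets, 13 higher and 22 lower in pups of HF dams, and with the weight at 3 weeks in the fit 0 passed (lowest adjusted p = 0.0944). The dam diet differed only between cages, 6 of HF dams and 6 of LF dams. Cage entered as a random block with a correlation of 0.0424, and no fit on cage means was run for this difference. All 35 probes had the same sign and an unadjusted p under 0.05 with the weight in the fit. They had been picked by this same contrast in the same mice, so these counts and the ratios that follow are not independent evidence. Their differences were a median 0.89 times as large with the weight as without it, from 0.57 to 1.40 times, and the SE was a median 1.35 times as large. Tuft1 differed by -0.44 ± 0.06 without and by -0.41 ± 0.09 with the weight in the fit, whereas Nudt7 differed by -0.31 ± 0.06 without and by -0.19 ± 0.07 with it.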

How the data were processed

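The authors hybridized liver RNA to Illumina MouseRef-8 v2.0 arrays and deposited 1 table of quantile-normalized intensity values on a linear scale, without background subtraction. The arrays of 36 mice were analysed here, and per the methods some further liver samples, not analysed here, were normalized together with them. BeadStudio is named in the submitters' processing notes, and its version is not given in the sources used here. Of 25697 probes, 23978 have 1 gene symbol and 1719 none. Log2 was taken with no pseudocount, and 12289 probes (47.8%) whose median reached that of the whole table (71.5) were kept. Genes with several probes entered lists by the brightest one. Changes of dim probes are understated, and the number of arrays limits the precision. Arrays correlated with the other arrays at medians of 0.979 to 0.991.

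Each probe was fitted on group and weight at 3 weeks in limma 3.58.1 (R 4.3.3, statmod 1.5.0; lmFit and eBayes with a trend), with cage as a random block (correlation 0.0278) and Benjamini-Hochberg adjustment over all 12289 probes at 5%. Slope differences between diets were fitted likewise. Alternatives changed the cage term, filter, variance model, background, weight measure and the mice or cages included, and refits without 1 mouse or cage kept the cage correlation of all mice. The fits were tested on simulated data. Body measures were compared by two-sided permutation within groups with 100000 resamples, or exactly within groups under 10 mice.

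Genes named are the 10 per direction with the lowest p, 13 growth genes, up to 3 members of each list with the lowest p and up to 5 per direction for each slope difference. Other genes named, such as those passing without the dam diet or all members of a list under an unadjusted p of 0.05, were chosen after their values were seen. The question, the genes and the lists were chosen with earlier results of these data known.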

Additional observations from a re-analysis of the deposited data

Results flagged for a closer look

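The slope of blood glucose on the weight at 3 weeks differed between dam diets by -34.9 mg/dl per g (HF dams minus LF dams, permutation p = 0.00385, adjusted p = 0.0115 over 3 body measures), with each cage left out in turn giving -45.1 to -27.2 mg/dl per g. In each group of HF dams the slope was below 0 (-10.8 mg/dl per g in HF_HF and -14.7 in HF_LF). In each group of LF dams it was above 0 (28.3 in LF_HF and 18.2 in LF_LF). Only the correlation in LF_HF passed when taken singly (permutation, adjusted p = 0.0352 over 15 correlations). The difference was tested after the slopes by group had been seen.

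Among 132 sets of values, 1 per group and gene or body measure, 6 held 1 mouse far from the rest, which is 4.55% where chance gives about 1 in 20. Fgf21 in LF_HF replicate 8 was at an intensity of 1176 against 94 to 160.5 in the other 7 mice, a gap of 0.788 of the whole range on the log2 scale. The gap was 0.657 for Zfp941 in LF_HF replicate 5 (99.8 against 77.2 to 84.3) and 0.616 for Igf2 in HF_LF replicate 6 (95 against 75.4 to 82.4). It was 0.555 for Ncapd2 in LF_HF replicate 3 (72.3 against 82.7 to 92.1), 0.543 for Alb in HF_HF replicate 5 (288.8 against 137 to 192.6) and 0.511 for Fmn2 in HF_LF replicate 7 (55.5 against 65.7 to 77.2).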

How the results depend on the processing

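No probe passed for the weight at 3 weeks in any alternative fit on all mice that kept the group, and the lowest adjusted p among these was 0.0995, with array quality weights. Leaving out the dam diet gave 10 calls. Leaving out each mouse or cage in turn gave 0 to 1 calls, with 564 to 1180 probes at an unadjusted p under 0.05. The slope differences by post-weaning diet and by dam diet gave 0 calls in every alternative run, from 0 to 0 with mice or cages left out. With the second weight in place of the weight at 3 weeks, a setting chosen after seeing the data as were the dam diet comparisons, 0 probes passed. The dam diet difference gave 35 calls without and 0 with the weight at 3 weeks.

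The r of weight at 3 weeks with the second weight was 0.56 to 0.65 with each cage left out, and with length 0.408 to 0.542. With glucose it was -0.0672 to 0.321, below 0 without cage 4 (-0.0672) and cage 8 (-0.0564) and within cage and group (-0.0752). No paired analysis was possible because replicate numbers were given in accession order only and pair no mice, so that mice were matched by cage alone, in the fit with cage as a fixed block (0 calls). Cage as a fixed block moved the median of 9 gene lists by more than the typical SE of a member, among them cholesterol synthesis (0.01) and the acute phase response (-0.05).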
